A study of Sus scrofa with 2 samples.

Results

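Among the regions covered by reads in 2 pig embryonic cultures, 1386 were abundant and had nearly the same level in embryonic germ cells (pEGC) and fetal fibroblasts (pFF). They were chosen from 75532 regions with at least 20 pooled reads, in which reads whose starts lay within 200 bases were joined. A region counted as abundant and equal if it was over 150 and under 5000 bases wide, held at least 200 reads in each library and had a pEGC over pFF ratio from 0.8 to 1/0.8, called the ratio band below. The ratio was taken after each library was scaled to its reads in these regions, which were 11268240 in pEGC and 9290569 in pFF. A block of chromosome 6 between 245 and 260 kb was left out of both the regions and the totals. Of 3819 regions that met the width and read limits, 1386 lay in the ratio band, which is 36.3%. That share follows from the rule itself and is a description.

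The study sequenced poly(A) RNA from both cultures, each with 1 library and no replicates, and each file holds 14324517 aligned reads. The design text credits both cultures with pluripotency and self-renewal. The animals were crosses of Danish Landrace and Yorkshire pigs per the sample labels, while the series title names mini pigs, and embryos were taken between days 17 and 24 of gestation. Colonies of pEGC were grown from hindgut or mesonephros tissue, with 1 embryo in each dish, on inactivated STO feeder cells, a mouse fibroblast line. Before the first passage, colonies were separated from somatic and feeder cells with collagenase and a mesh. The medium contained 10 ng/ml of LIF, as much SCF, and bFGF at 3 ng/ml. The labels carry the same culture text for pFF and do not describe how fibroblasts were grown. No further treatment was applied to either culture. Any feeder reads placed on the pig genome are not marked as such in the files. With bulk RNA a change in the number of cells cannot be told apart from a change in RNA per cell.

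Embryonic germ cells are grown from primordial germ cells, from which gametes later arise. Fetal fibroblasts are connective tissue cells that lay down matrix. Cells of unlike type share a large set of transcripts for tasks such as protein synthesis, energy metabolism and the cytoskeleton, and transcripts of similar level in 2 cell types are often sought as reference points for comparing them. Fragmented poly(A) RNA copied from random primers yields reads along the whole of a spliced transcript, so a region seen in the genome is most often an exon or a run of closely spaced exons. Which genes the equal regions belong to was not examined, because the genome build of the files is not given in the sources used here. The RefSeq gene table at hand is on Sscrofa11.1, and on 6 of 19 chromosomes reads lay beyond its last gene. The identity of the cultures was therefore not checked against marker genes, and the regions are named by their position in the deposited files.

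The equal regions held 1085869 pEGC reads and 902417 pFF reads. This was 9.64% of the pEGC reads in kept regions (exact Clopper-Pearson 95% interval 9.62 to 9.65) and 9.71% of the pFF reads (9.69 to 9.73). The closeness of these shares, like that of the median levels given below, follows from the ratio band and the scaling. All regions that met the width and read limits, whatever their ratio, held 31.2% and 35.3%. Such intervals cover counting error only, because amplified copies of 1 molecule cannot be recognised and each culture had 1 library. Single regions had 202 to 46488 reads in pEGC, with a median of 453, and 200 to 42168 reads in pFF, with a median of 370. On the scale of reads per 1000000 reads in kept regions (RPM), the median level was 40.2 in pEGC and 39.8 in pFF, and 90% of the regions lay between 21.2 and 183 RPM in pEGC and between 22.5 and 186 RPM in pFF. The lower ends of these ranges are set by the read minimum, which 5238 of the 75532 kept regions met when width was left aside. A few equal regions were very deep: the 10 with most reads held 12.9% of the set's reads in pEGC and 13.2% in pFF.

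**Figure D1:**
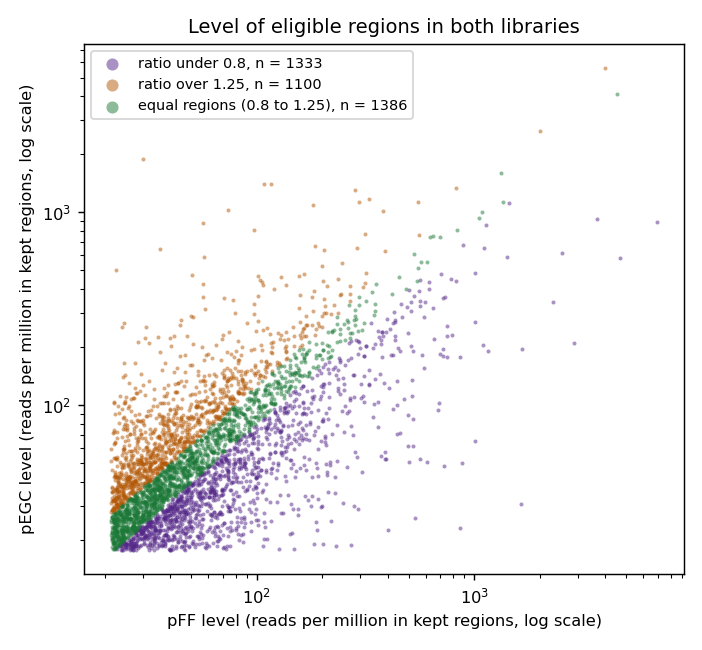
Level of the 3819 regions that met the width and read limits, in RPM on log axes, with pFF on the x axis and pEGC on the y axis and 1 point for each region. The 1386 equal regions form the diagonal band between 1100 regions above the band and 1333 below it.

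Within the band the ratios had a median of 0.987, with 90% of them between 0.817 and 1.21. Ratios above 1 were found in 655 regions and ratios below 1 in 731. The counting interval of the ratio held 1 in 845 of the 1386 regions, and it lay wholly within the band in 563 (40.6%). For the other regions counting error alone allows a true ratio outside the band. The members just inside the lower edge were the regions on chromosome 5 from 5978485 to 5979919, with 232 pEGC and 239 pFF reads, and on chromosome 14 from 52754239 to 52754690, with 832 and 857, both at a ratio of 0.80. Just outside it lay regions on chromosome 6 (503 and 519 reads) and chromosome 14 (250 and 258 reads), both at 0.799. At the upper edge the ratios were 1.2497 and 1.2484 inside, on chromosomes 4 and 7, and 1.2504 and 1.2505 outside, on chromosomes 2 and 7. Among the regions nearest to the read minimum, those on chromosomes 4 and 12 with 200 pFF reads were members, and those on chromosomes 3 and 4 with 199 were not. The width limits removed a further 11 narrower and 395 wider regions that met the read and ratio limits.

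Equality in this sense depended on how the libraries were scaled. A trimmed mean of M-values moved every log2 ratio by -0.41, and 460 of the 1386 regions (33.2%) stayed in the band. Scaling by all lines of each file, with the chromosome 6 block included, moved it by 0.28 and left 830 (59.9%). The median of ratios moved it by -0.02 and left 1352 (97.5%). The regions described below are therefore equal relative to the reads of the kept regions, and no absolute amount per cell was measured.

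The equal region with the most reads was on chromosome 1 (97569385 to 97571185). It held 46488 pEGC reads (4126 RPM) and 42168 pFF reads (4539 RPM), a ratio of 0.909 (0.897 to 0.921). Its profile, shown in the plot of read starts along 4 regions, had several peaks at the same places in both libraries, and the central 90% of the reads lay between bases 54 and 1539 of its 1801 bases in pEGC and between bases 44 and 1539 in pFF. Of the 1427 start positions (counted with strand) used in pEGC and 1419 used in pFF, 1248 were the same, which is 87.5% and 87.9% of each. Another deep region on the same chromosome, from 97617764 to 97619645, had 11291 and 10052 reads, equal to 1002 and 1082 RPM, a ratio of 0.926 (0.901 to 0.951). There the reads sat almost wholly in the left part, with 97 pEGC and 108 pFF reads in the right part. When that region was cut into 10 segments of equal width, segment 1 held 25.1% of its pEGC reads and 50.9% of its pFF reads, and segment 4 held 54.8% and 36.0%, so the equal total was made up of unequal segments.

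In 4 others of the 10 deepest regions, cut at the midpoint, the ratio of the left part divided by that of the right part lay between 0.836 and 1.36. On chromosome 17 the region from 8181214 to 8185289 had 6192 pEGC and 5670 pFF reads, or 550 and 610 RPM, a ratio of 0.90 (0.868 to 0.934). All of its 4076 bases were covered in both libraries, no segment held less than 6.35% or more than 14.1% of the reads of a library, and the left and right parts had ratios of 0.881 and 0.917. The chromosome 14 region from 68422894 to 68425227 had 10579 and 9828 reads (939 and 1058 RPM), a ratio of 0.887 (0.863 to 0.912), with coverage of 98.0% of its bases in pEGC and 98.5% in pFF. On chromosome 11 the region from 6630977 to 6635118 had 8412 and 6494 reads (747 and 699 RPM), a ratio of 1.07 (1.03 to 1.10), and segment 6 of 10 alone held 50.9% of its reads in pEGC and 56.7% in pFF. The chromosome 5 region from 14444865 to 14445833 had 9121 and 7727 reads (809 and 832 RPM), a ratio of 0.973 (0.944 to 1.00), and 8245 and 7097 of them lay in its left part.

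The remaining 4 of the 10 deepest were concentrated in few places or uneven between the libraries. On chromosome 12, from 56210992 to 56214877, the right part held 18061 of 18125 pEGC reads and 12378 of 12406 pFF reads, with a ratio of 1.20 (1.18 to 1.23). On chromosome 1, from 187870761 to 187872750, the last segment held 93.6% of 8496 pEGC reads and 95.8% of 6010 pFF reads, only 4.71% and 3.36% of the reads were on strand F, and the ratio was 1.17 (1.13 to 1.20). The chromosome 7 region from 131807673 to 131810619, with 12792 and 12613 reads (1135 and 1358 RPM) and a ratio of 0.836 (0.816 to 0.857), had a ratio of 0.681 in its left part and 1.01 in its right part. On chromosome 15, from 119267816 to 119269223, 8441 pEGC and 5809 pFF reads gave 749 and 625 RPM and a ratio of 1.20 (1.16 to 1.24). The left part of that region had a ratio of 0.905 and the right part 2.63. There segment 4 held 6.40% of the region's reads in pEGC and 33.3% in pFF, whereas segment 7 held 33.8% and 10.1%. A single start position there took 29.2% of the pEGC reads.

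**Figure D2:**
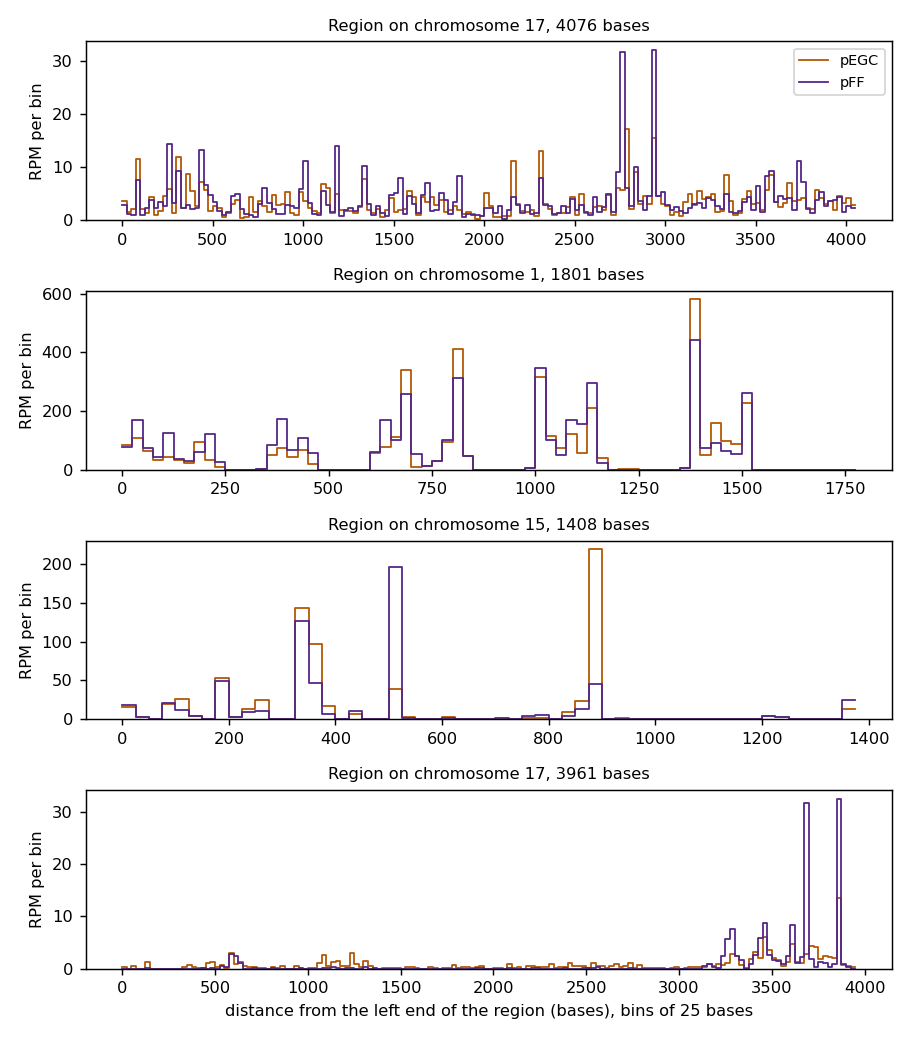
Read starts along 4 equal regions in bins of 25 bases, in RPM per bin (y axis, each panel with its own scale) against the distance from the left end in bases, for pEGC (orange) and pFF (purple). From top to bottom, the fully covered region on chromosome 17, the deepest region on chromosome 1 with its several peaks, the region on chromosome 15 whose 2 tallest bins belong to different libraries, and a second region on chromosome 17 whose left part holds 382 pEGC and 94 pFF reads.

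The placement of reads inside a region was not used by the rule, and it was compared over all equal regions. In bins of 50 bases, the profiles of the libraries had a median Spearman rho of 0.709 over 1291 equal regions with at least 10 bins, with quartiles of 0.587 and 0.813. The median was 0.736 in regions above the band and 0.729 in those below it. The median rho was higher where reads were many. It was 0.660 in 704 equal regions with under 500 reads in each library and 0.816 in 172 with at least 1000. The same rise was found above the band (0.656 and 0.855) and below it (0.666 and 0.826). Whether read number alone gives this rise was not tested. Bins of 1 region are not independent, so these values describe and carry no p-value. The highest rho, 0.997, belonged to a region of 564 bases on chromosome 1 from 283740747 to 283741310, with 431 and 433 reads, followed by the deep regions on chromosomes 5 (0.976) and 15 (0.966) named above. The last of these shows that a high rank correlation can go with unequal heights. The lowest values were near 0 (3.49e-05) on chromosome 4 from 101157633 to 101162430, 0.0495 on chromosome 5 from 75619645 to 75620554 and 0.0711 on chromosome 1 from 226126912 to 226131178. The first and the third were wide for their 219 to 476 reads in a library. In the second, segment 4 held 66.9% of 559 pEGC reads and 41.5% of 381 pFF reads. The adjoining segment 5 held 27.9% and 56.7%, so most reads of both libraries lay in the same adjoining segments. In the first, segment 8 held the most reads in both libraries, 68.7% in pEGC and 54.5% in pFF. The low rho of these regions therefore does not mean that most reads lay in different places. What lowered it was not tested.

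For every region cut at its midpoint, the ratio of the left part was divided by that of the right part. This quotient was 2-fold or more away from 1 in 227 of the 1386 equal regions (16.4%), against 18.5% of the regions that met the width and read limits and were not equal (13.2% above the band and 22.8% below it). With each position counted once, the share among the 598 regions then equal was 1.84%. Of the 1386 regions, 312 overlapped one of these 598, and the share among regions not equal was not computed under that setting. The counts here and in the examples below keep repeated positions. Where every part had at least 50 reads in each library, 71 of 1070 equal regions (6.64%) were 2-fold unequal, against 9.59% of the others (7.26% above and 11.7% below the band), and 47 of the 71 had one part above the band and the other part below it. Such opposite parts were found in 10 of 64 unequal regions above the band and 34 of 113 below it. Both parts lay in the band in 493 of the 1070 equal regions (46.1%). The choice of an equal total favours both of these outcomes, so neither is a result about the equal regions. The part with the higher ratio was the left one in 33 of the 71 and the right one in 38. The share of equal regions with 2-fold unequal parts thus lay between those of the regions above and below the band without a minimum, and below both with it. The minimum of 50 reads was chosen after the values had been seen.

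**Figure D3:**
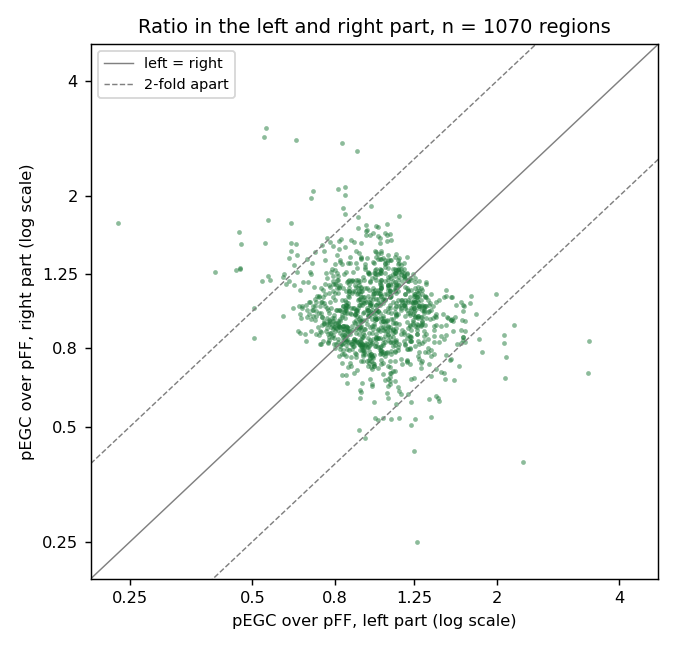
Ratio of pEGC over pFF in the left part (x axis) and the right part (y axis) of 1070 equal regions with at least 50 reads of each library in each part, on log axes. The dashed lines mark a 2-fold difference between the parts, and 71 regions lie on or beyond them. Because the total was chosen to be equal, a high value in one part goes with a low value in the other.

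Regions with the most unequal parts show how an equal total can arise, and those in this paragraph were chosen after their values were seen. On chromosome 17, from 11941214 to 11945174, 1421 pEGC and 1336 pFF reads (126 and 144 RPM) gave a ratio of 0.877 (0.813 to 0.946), but the left part held 382 and 94 reads (ratio 3.35) and the right part 1039 and 1242 (0.690). Reads of pEGC were spread along the region, with 86.9% of its bases covered, while those of pFF covered 44.4%, and the last segment held 60.9% of the pFF reads. On chromosome 15, from 8736563 to 8737567, with 750 and 740 reads and a ratio of 0.836 (0.754 to 0.926), the left part held 428 pEGC and 652 pFF reads and the right part 322 and 88, so the ratios were 0.541 and 3.02. One stretch of 100 bases, from 8737363 to 8737462, had 67 pEGC reads and 7 pFF reads, a 9.44-fold difference relative to the region. The region on chromosome 12 from 4539594 to 4540003 had 924 and 674 reads, with 74 and 262 in the left part (0.233) and 850 and 412 in the right part (1.70). On chromosome 9, from 71649114 to 71649524, 468 and 396 reads split into 332 and 118 on the left (2.32) and 136 and 278 on the right (0.403). By the rule for naming regions, the 3 largest and the 3 smallest quotients, from 27.5 to 9.46 and from 0.0664 to 0.0803, were also looked up. They lay on chromosomes 2, 4, 5, 9 and 14, and each rested on a part with 1 to 3 reads in a library.

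At a finer scale, a bin of 100 bases counted as unequal if the library with more reads there had 50 or more and there was a 4-fold difference in its share of the region's reads. At least 1 unequal bin was found in 60 of the 1164 equal regions that had a bin of this depth (5.15%), against 8.33% of the other regions. Of 5248 such bins in equal regions, 39 were higher in pEGC and 26 higher in pFF. In 1020 regions above the band 113 of 6529 such bins were unequal, and in 1236 below it 123 of 6716. Equal regions thus had fewer bins of this depth per region, and the shares with at least 1 unequal bin are not matched for this. Whether it accounts for the difference was not tested. The outermost 20% at either end of a region held 23 of the 65 unequal bins of equal regions, 39 of 113 in regions above the band and 57 of 123 in regions below it. How many of all bins of this depth lay in these ends was not counted, so the values do not show a gathering at the ends. In 2 equal regions unequal bins of both directions occurred. One of them, on chromosome 13 from 58599944 to 58604359 with 2080 pEGC and 1495 pFF reads, had 101 and 13 reads in the bin from 58601644 (5.58-fold higher in pEGC) and 54 and 162 in the bin from 58603344 (4.17-fold higher in pFF). Another region of chromosome 13, from 55524025 to 55526349 with 508 and 516 reads, had adjoining bins from 55525925 with 85 and 9 reads and from 55526025 with 85 and 21 reads, 9.59-fold and 4.11-fold higher in pEGC. These were also singled out after their values were seen.

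Although the scaled totals matched, the libraries differed in how many positions made them up. Distinct combinations of start and strand made up a median of 50% of an equal region's reads in pEGC and 46.4% in pFF. Among regions chosen after scaling by a trimmed mean of M-values the order turned, with 48.0% in pEGC and 48.7% in pFF. These shares are not matched for depth, and no matched share was computed under that scaling. Since pEGC had more reads before scaling, each library was also reduced to the distinct positions expected in 200 of its reads, and the medians were then 68.9% in pEGC and 61.8% in pFF. After this step pEGC had the higher share in 1232 of 1386 regions (88.9%), compared with 87.6% of the regions above the band and 80.9% of those below it. Coverage followed the same order, with a median of 73.7% of the bases of a region in pEGC and 65.1% in pFF. The span holding the central 90% of the reads was at least 500 bases wider in pEGC in 87 equal regions and in pFF in 10, and within 100 bases in 920. Over all 3819 eligible regions these counts were 217, 39 and 2599. Coverage and span were not matched for depth, and pEGC had more reads. A median of 30.8% of the positions used in pEGC were also used in pFF, and 40% of those used in pFF were also used in pEGC. The extremes were the region on chromosome 2 from 119309228 to 119309380, with 88 positions for 5179 pEGC reads (1.70%) and 84 for 4191 pFF reads (2.00%), and on the other side regions on chromosome 5 from 20433969 to 20438864 (83.3% in pEGC) and on chromosome 8 from 330411 to 334815 (78.0% in pFF).

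The libraries also differed in the distance between reads of opposite strand. In 1166 equal regions at least 1000 bases wide, the most frequent distance from an F start to an R start was 146 bases in pEGC and 174 bases in pFF. With the 34 bases of a read this gives fragments of about 180 and 208 bases. Whether the distance bears on the ratios was not tested. With each position counted once in each library, regions were built and scaled anew, and 312 of the 1386 regions (22.5%) overlapped one of the 598 regions then equal.

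Width ran from 153 to 4992 bases with a median of 2358. The equal regions made up between 32.3% and 38.9% of the eligible regions in each of 6 width classes, so no class stood far from the overall share. Other features changed steeply with width. In 200 pEGC reads, the 98 regions of up to 500 bases had a median of 33.8% distinct positions and the 211 regions of over 4000 bases 80.7%. Fewer bases offer fewer positions, but both values are for 200 reads, and what sets them apart was not tested. The most frequent position took a median of 11.6% of the pEGC reads in the narrowest class and 2.29% in the widest. The 3 narrowest regions had 153, 154 and 158 bases. The first, on chromosome 2, reached 460 RPM (pEGC) and 451 RPM (pFF), a ratio of 1.02 (0.978 to 1.06), but its left part held 1242 pEGC and 303 pFF reads. The second, on chromosome 4 from 29345152 to 29345305, had 311 and 296 reads (27.6 and 31.9 RPM). The third, on chromosome 3 from 51946520 to 51946677, had 1313 and 1017 reads (117 and 109 RPM). It lay close to a member of 352 bases from 51945634 to 51945985 with 1012 and 808 reads, in which the ratio was 0.640 on the left and 2.80 on the right. That member was singled out after its values were seen.

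The 3 widest regions were sparser. On chromosome 5, from 59234371 to 59239362, 297 pEGC and 230 pFF reads gave 26.4 and 24.8 RPM and a ratio of 1.06 (0.893 to 1.27). The chromosome 13 region from 27202170 to 27207150 had 1447 and 1061 reads (128 and 114 RPM), with ratios of 1.19 and 1.07 in its parts. The chromosome 3 region from 73933128 to 73938105 had 739 and 492 reads (65.6 and 53.0 RPM), with ratios of 1.26 and 1.19. In both of the deeper ones the left and right parts were close to each other.

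The labels name no strand-specific step, and reads of both strands were found in about equal number in most equal regions. Strand F held a median of 49.9% of the reads of a region in each library, and 953 of 1386 regions (68.8%) had 40 to 60% of their reads on strand F in both, close to the 69.8% of all 3819 eligible regions. In 51 regions (3.68%) at least 80% of the reads of both libraries lay on the same strand, 24 on F and 27 on R, and 28 of these 51 were in the narrowest width class. The corresponding shares were 2.27% of the regions above the band and 5.93% of those below it. The strand shares of the libraries went together across the 1386 regions (Spearman rho 0.730, a description, since both libraries share the sequence of each region). The most one-sided region, on chromosome 2 from 66581895 to 66582099 with 328 and 306 reads, had 0.610% of its pEGC reads and 0.327% of its pFF reads on strand F. Some regions differed between the libraries: on chromosome 9, from 9211913 to 9212116, 57.8% of 1416 pEGC reads and 21.1% of 1023 pFF reads were on strand F. On chromosome 6, from 42567334 to 42567591, a single position took 52.6% of 1372 pEGC reads and 37.9% of 1163 pFF reads. These examples were chosen after their values were seen.

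**Figure D4:**
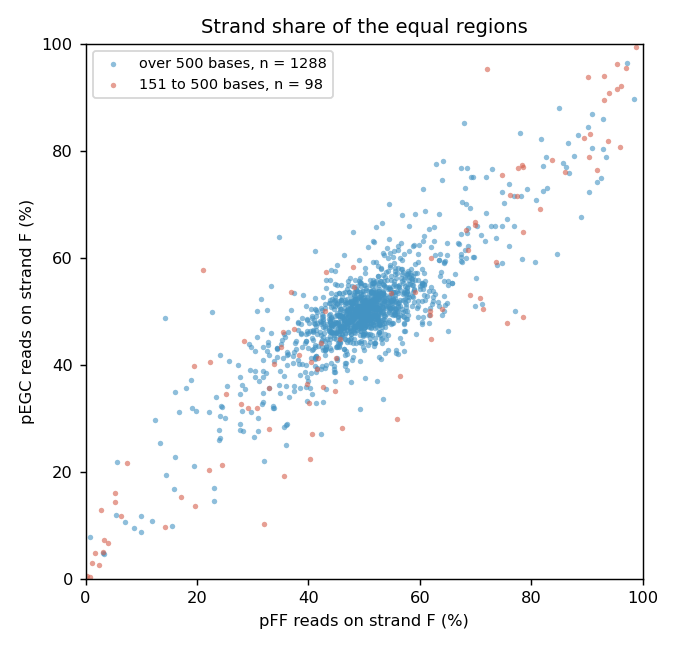
Share of reads on strand F in pFF (x axis) and pEGC (y axis), in percent, for the 1386 equal regions, with the 98 regions of up to 500 bases in red and the 1288 wider ones in blue. Most points lie near the centre, and points near the corners are regions with reads on 1 strand in both libraries.

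Reads of the regions next to an equal region were not used to choose it. On 2226 of the 2772 sides of equal regions another kept region lay within 20 kb, at a median gap of 801 bases. On 198 sides that neighbour was itself an equal region, and no matching count was made for regions above or below the band. A total of 900 neighbours were not members and had at least 50 reads in each library. Of these, 292 (32.4%, interval 29.4 to 35.6) had a ratio in the band. The same share was 18.2% for neighbours of the other eligible regions and 25.6% over all kept regions of this depth that were not members. Neighbours of equal regions had a median ratio of 1.02, with quartiles of 0.742 and 1.42, whereas the median was 1.45 beside regions above the band and 0.645 beside regions below it. A 4-fold difference was found in 12 of the 900 (1.33%) and in 5.70% of the neighbours of other eligible regions. Neighbours share a locus and some serve 2 regions, while the intervals treat them as independent draws. The intervals hold neither the counting error of each ratio nor any spread between cultures.

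The definition of members touches this comparison, because a neighbour with 200 reads in each library, a width within the limits and a ratio in the band is itself a member and was left out. Among neighbours with 50 to 199 reads in the lower library, where this cannot happen, 261 of 633 (41.2%, 37.4 to 45.2) were in the band. The share was 24.6% beside other eligible regions and 30.5% over all kept regions of that depth. By distance, 33.1% of 547 neighbours within 1000 bases, 34.9% of 235 over 1000 and up to 5000 bases away and 24.6% of 118 at up to 20000 bases were in the band. Most of the 900 neighbours were therefore outside the band, but 85.2% were within 2-fold, compared with 69.7% beside other eligible regions.

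**Figure D5:**
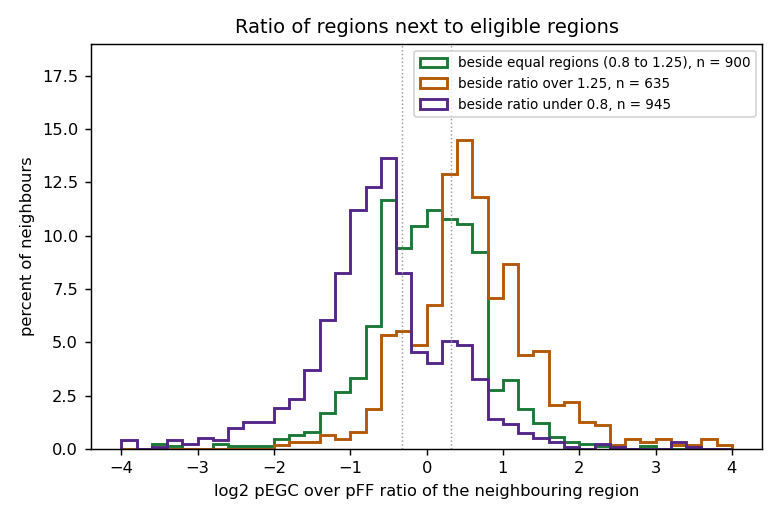
Distribution of the log2 pEGC over pFF ratio of neighbouring regions within 20 kb, as percent of the neighbours of each kind, beside 1386 equal regions (green, 900 neighbours), regions above the band (orange, 635) and regions below it (purple, 945). Dotted lines mark the band. Inside it, neighbours with at least 200 reads in each library and a width within the limits are missing because they are members. Values beyond 4 are drawn at the edge.

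Joined over gaps of up to 20 kb, the equal regions formed 1144 groups, of which 968 were single regions, 132 were pairs and 44 held 3 or more. Other eligible regions were not grouped in this way, so the counts do not show whether equal regions gather. Of the pair of groups with 7 members, the one with more reads lay on chromosome 17 from 8164796 to 8199176 and held 14 kept regions in all. Its members had 10271 pEGC and 9066 pFF reads in all (911 and 976 RPM), a ratio of 0.934, and single ratios from 0.865 to 1.10. They included the fully covered region of 4076 bases described above and another of 4140 bases from 8195037 to 8199176, with 1075 and 869 reads and a ratio of 1.02 (0.932 to 1.12). With the other kept regions of the span added, the ratio was also 0.934.

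A second group of 7 lay on chromosome 3 from 80690983 to 80734969, among 25 kept regions. Its members had 3610 and 3067 reads (320 and 330 RPM), with single ratios from 0.813 to 1.20, and a region of 1769 bases at its left end held 1603 and 1195 of the reads. Of the 18 other regions in the span, 15 had at least 50 reads in each library, with ratios from 0.444 to 2.44, yet the ratio over the whole span was 0.985. In the third group, on chromosome 12 from 34009791 to 34046894, 6 members had 2850 and 2401 reads (253 and 258 RPM). The leftmost had a ratio of 1.20 (1.09 to 1.33) and the rightmost 0.801 (0.694 to 0.925). Adding the 13 other regions brought the ratio of the span from 0.979 to 0.804, the lower edge of the band, so the regions around the equal ones were in sum lower in pEGC.

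Equal regions were found on all 19 chromosomes. Chromosomes 2 and 1 had the most, with 141 and 131. As a share of the eligible regions of a chromosome they ranged from 16.9% on chromosome 18 (14 of 83) to 41.6% on chromosome 7 (107 of 257). On chromosome 18, 47 eligible regions were below the band and 22 above it. Chromosome 16 had the next lowest share, 25.3% (19 of 75), followed by the X chromosome with 29.8% (39 of 131). All other chromosomes lay between 32.2% and 41.6%. Regions of 1 chromosome can belong to the same gene, so these shares are given without a test.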

How the data were processed

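The poly(A) RNA libraries, 1 from each culture, were analysed. The files the authors deposited list 1 aligned read on each line with chromosome, start, end and strand (F or R), without a header, a count or a score. For the aligner, the build, reads with several matches and any filter: not given in the sources used here. Every line spanned 34 bases and repeated lines were kept. The BED convention was assumed, so positions may be off by 1 base.

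Read counts of regions were computed here in Python 3.11.15 with numpy 2.4.6, pandas 2.3.3 and scipy 1.17.1. Intervals of ratios are exact (Clopper-Pearson, 95%). With 1 library in each group no test between cultures was possible. A part or bin without reads in a library was set to 3 reads. Distinct positions at 200 reads are exact expectations. The scripts were tested on simulated data.

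The members, lists and tests were chosen with earlier results of these data known. Named are the 10 members with the most reads, the 3 widest and narrowest, those with the 3 highest and lowest quotients of parts and profile correlations, those with the most extreme shares of distinct positions, those at the edges of the rule and the 3 largest groups. Other examples are marked as chosen later. Gene lists could not be used. Alternatives were other scalings, join distances, read minimums and ratio bands, and each position counted once.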

Additional observations from a re-analysis of the deposited data

How the results depend on the processing

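Each of 9 values was recomputed under 9 planned settings and 4 added after seeing the data; of 83 values, 26 moved by less than their counting interval (the member count by less than 1.5 times) and 57 by more. In what follows, the share of reads is given for pEGC and then pFF (9.64% and 9.71% as reported), as are the distinct positions (50% and 46.4%). Scaling by a trimmed mean of M-values gave shares of 9.12% and 6.98%, 2-fold unequal parts in 13.3% and balanced strands in 72.6%. Distinct positions were then 48.0% and 48.7%, so the order of the cultures turned in these shares, which are not matched for depth. The median of ratios gave shares of 9.66% and 9.65%. Scaling by all lines gave shares of 8.38% and 9.96%, unequal parts in 18.9% and distinct positions of 51.3% and 44.9%. Joining within 100 bases gave shares of 11.9% and 12.0%, a median rho of 0.686, distinct positions of 47.8% and 44.7% and 29.0% of neighbours in the band. Joining within 400 bases gave 791 regions, shares of 4.95% and 5.05% and a rho of 0.729. A minimum of 100 reads gave 2713 regions, shares of 11.6% and 11.7%, unequal parts in 21.9%, a rho of 0.647, distinct positions of 56.1% and 50.9%, balanced strands in 60.7% and 23.6% of neighbours in the band. A minimum of 500 reads gave 473 regions, shares of 6.59% and 6.67%, unequal parts in 12.1%, a rho of 0.773, distinct positions of 41.6% and 38.2%, balanced strands in 79.5% and 35.8% of neighbours. A band from 0.9 to 1/0.9 gave 667 regions, shares of 4.86% and 4.91%, balanced strands in 71.4% and 12.9% of neighbours in that narrower band. With each position counted once the read minimum applied to distinct positions, and 598 of 1548 eligible regions were equal. Of the reported regions, 312 overlapped one of them. The shares were 6.17% and 6.42%, with unequal parts in 1.84% and a rho of 0.749. Strands were balanced in 87.3%, 57.4% of neighbours were in the band, and the distinct share has no value. Of the added settings, 50 reads in each part gave unequal parts in 6.64%, a cut at the median read 9.52%, neighbours with 50 to under 200 reads 41.2% in the band and 1000 reads in each library a rho of 0.816. Apart from what each setting changes by construction, the cause was not tested. No paired analysis was possible because each culture had 1 library, and no replicate could be left out. Depth limits the shallow regions most: no ratio's interval lay wholly in the band with fewer than 439 pooled reads.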
